A study of Mus musculus with 32 samples.

Results

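The amino acid stress response genes are 10 transcripts that cells raise, or use, when amino acids run short or proteins misfold: Asns, Slc7a5, Slc3a2, Slc7a11, Atf4, Ddit3, Trib3, Chac1, Psat1 and Phgdh. They were taken from 17097 genes of one array type and 22180 of another, and each was read from its brightest probe set that carries a single gene symbol. The members were chosen by their measured signals in sorted macrophages of population A, which did not add up across 2 gene deletions, so that pattern is given below as a description with no test. All 10 passed the filter on low signals in every comparison.

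The study measured RNA of macrophages that infiltrate mouse tumours on 32 arrays in 12 groups. In the first experiment, cells enriched with magnetic beads for the myeloid surface protein CD11b came from neuroblastomas that arise spontaneously in Th-MYCN transgenic mice (3 arrays) or from EG7 thymomas transplanted into WT mice (3 arrays). The second used CD11b-enriched cells of EG7 tumours in Myd88-/- hosts (5 arrays) or WT hosts (5 arrays). The last used flow-sorted cells of EG7 tumours, with 2 arrays per genotype and population, from double KO hosts (TNFR1-/-, Myd88flox/flox, Tie2-Cre), Myd88 cKO hosts (Myd88flox/flox, Tie2-Cre), TNFR1-/- hosts and WT hosts. Population A was CD11b+, Ly6G-, Ly6C+ and MHCII-, and population C was CD11b+, Ly6C- and MHCII+. Tie2-Cre is active in blood-forming and endothelial cells, whereas TNFR1-/- and Myd88-/- hosts lack the gene in every host cell. The grafted EG7 cells carry neither deletion, and EG7 is a line of T lymphocyte origin, so Cd3g, a T cell receptor subunit, was read on every array as a measure of T lineage and tumour RNA. Host age is not given in the labels.

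Amino acid shortage activates the kinase GCN2, and misfolded protein in the endoplasmic reticulum activates PERK. Both phosphorylate the translation factor eIF2alpha, which slows protein synthesis in general and favours translation of the transcription factor ATF4. Because ATF4 is controlled largely at translation, its mRNA level need not follow its activity. ATF4 then raises genes for amino acid import, amino acid synthesis and, under lasting stress, cell death. In macrophages the same genes also bear on glutathione production and on arginine and serine use.

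ATF4 acts with C/EBP proteins through a short composite element, here searched as TGATGNAA on both strands of the 250 bases before each gene's start in the RefSeq promoter table (build GRCm38.p6). Of the 10 members 9 had an entry, and 3 held a match: Asns, Slc7a11 and Chac1. The letters occur in 3.45% of 32851 promoters of that length. The windows below are shown because Asns and Slc7a11 carry the main differences in the sorted cells and moved in unlike ways, although both hold the element. Each is written 5′ to 3′ on the strand of the gene, with the matches in capitals.
Asns, chr6:7693210-7693256, minus strand: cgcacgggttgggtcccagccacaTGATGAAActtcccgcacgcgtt
Slc7a11, chr3:50443629-50443703, minus strand: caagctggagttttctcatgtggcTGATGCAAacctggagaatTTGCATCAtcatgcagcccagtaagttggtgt
Chac1, chr2:119351025-119351080, plus strand: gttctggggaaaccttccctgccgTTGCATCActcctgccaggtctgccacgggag
The Asns match starts 23 bases before the gene's start, the Slc7a11 pair 66 and 47 bases before it on opposite strands, and the Chac1 match 193 bases before it. No match in Slc3a2, Atf4, Ddit3, Trib3, Psat1 or Phgdh says only that these letters are not in this window. The Trib3 entry holds 1 match that does not lie wholly before the gene's start. A match is a description of the sequence and not a measured binding site.

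Signals are log2 values per probe set, so a difference of 1 is a doubling, and levels are compared between samples of the same experiment but never between genes. Differences were tested in both directions with limma, p-values were adjusted by Benjamini-Hochberg across every gene that passed the filter, and an adjusted p under 0.05 counted as a call. A count at an unadjusted p under 0.05 has no share over all genes beside it here, so nothing is read from it. A value after ± is the standard error of that log2 difference. Nothing in the labels says that a group's arrays are separate animals, so the p-values reflect only array-to-array spread, which may be technical. The deleted gene checked the labels. Myd88 was lower with the deletion by -1.79 ± 0.19 in A (adjusted p = 0.000562), by -1.76 ± 0.19 in C (adjusted p = 0.0036) and by -0.75 ± 0.10 in Myd88-/- against WT hosts (adjusted p = 0.00174). In C it read 8.76 and 7.97 in double KO cells, 7.49 and 7.53 in Myd88 cKO cells, and 9.78 and 9.22 in WT cells. Double KO replicate 1 of C was thus nearer to the lower WT array than to the Myd88 cKO arrays. Tnfrsf1a, which encodes TNFR1, differed by -0.34 ± 0.17 in A (adjusted p = 0.39) and -0.54 ± 0.17 in C (adjusted p = 0.233) with the TNFR1 deletion and was not called. In A it read 7.69 and 8.20 on the arrays labelled double KO, 7.95 and 8.00 on those labelled Myd88 cKO, 7.51 and 7.59 on those labelled TNFR1-/-, and 8.09 and 8.30 on those labelled WT. The labelled double KO arrays are thus not separated from Myd88 cKO, and replicate 2 lies within the WT range, so Tnfrsf1a does not bear out the TNFR1 deletion on them. In C Tnfrsf1a read 7.55 and 7.70 in double KO cells and 7.56 and 7.87 in TNFR1-/- cells. It read 8.43 and 8.04 in Myd88 cKO cells and 8.55 and 7.81 in WT cells, so TNFR1-/- and WT overlapped. Whether this Tnfrsf1a probe set lies in the deleted part is unknown here. Array medians lay between 5.31 and 5.5 on the sorted arrays. The mean of 9 macrophage markers was 7.92 to 10.06 in A and 10.36 to 10.65 in C, and although A was gated as Ly6G-, 5 of 6 neutrophil markers were higher in A than in C, among them Ly6g (1.16 ± 0.22, adjusted p = 0.000991).

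In population A, transcripts for the asparagine-making enzyme and for the large neutral amino acid transporter were highest on the arrays labelled double KO, whose Tnfrsf1a signal does not show the TNFR1 deletion, and lowest in TNFR1-/- cells. Asns, asparagine synthetase, read 8.21 and 8.47 in double KO cells, 6.98 and 7.61 in Myd88 cKO cells, 6.31 and 6.02 in TNFR1-/- cells, and 7.70 and 7.12 in WT cells. Slc7a5, the light chain of the transporter LAT1, read 9.09 and 9.39 in double KO cells, 7.70 and 8.33 in Myd88 cKO cells, 7.43 and 7.21 in TNFR1-/- cells, and 8.98 and 7.82 in WT cells. For both genes the TNFR1-/- pair lay below the other 6 arrays and the double KO pair above them, while Myd88 cKO and WT overlapped. Psat1, which makes phosphoserine in serine synthesis, read 7.06 and 7.24 in double KO cells, 6.08 and 6.56 in Myd88 cKO cells, 6.09 and 5.99 in TNFR1-/- cells, and 6.44 and 6.07 in WT cells. Its double KO pair stood above the other 3 genotypes, which were close together.

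**Figure D1:**
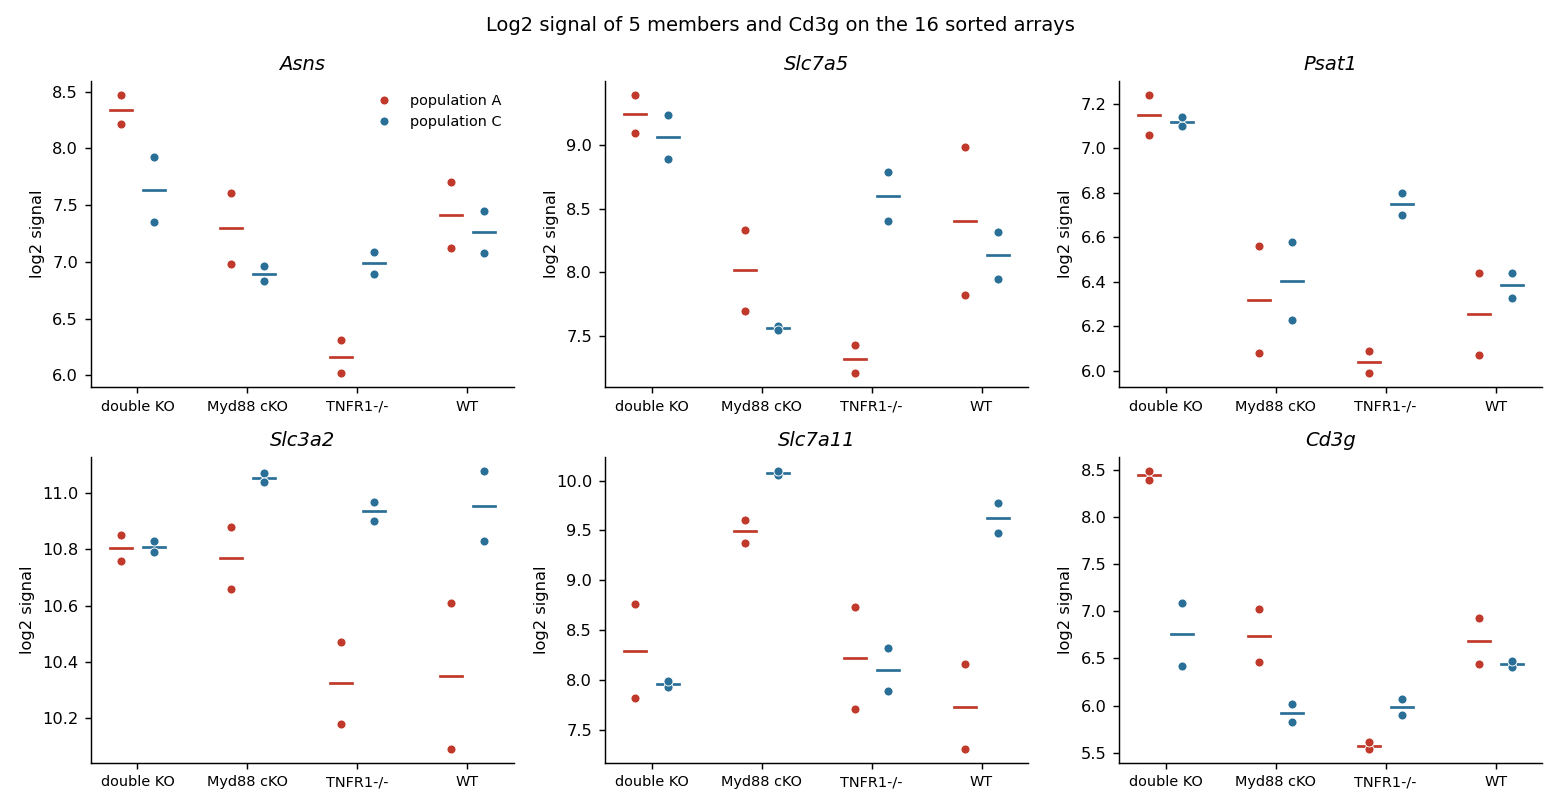
Log2 signal of Asns, Slc7a5, Psat1, Slc3a2, Slc7a11 and Cd3g (vertical axes) by host genotype (horizontal axes) on the sorted arrays. Points are arrays, 2 per genotype and population, and short lines their means, with population A in red and C in blue. In A the double KO pair is the highest for Asns, Slc7a5, Psat1 and Cd3g, and the Slc7a11 panel has a different order.

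The departure of the double KO difference from the sum of the 2 single differences, here called non-additivity, expresses this pattern as a single number. For Asns the double KO differed from WT by 0.93 and the 2 single deletions summed to -1.36, a non-additivity of 2.29 ± 0.36. For Slc7a5 the double KO difference was 0.84 and the sum -1.47, a non-additivity of 2.31 ± 0.44. For Psat1 these were 0.90 and -0.15, a non-additivity of 1.04 ± 0.26. Slc7a11, the cystine importer of system xc-, went the other way: its double KO difference of 0.56 lay below a sum of 2.24, a non-additivity of -1.68 ± 0.49.

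The other 6 members departed little from the sum. Trib3, Chac1 and Phgdh read near the middle of the sorted arrays, at percentiles 40.9 to 57.2, 52.2 to 65.3 and 53.1 to 66.6. At such low signals a small value says little for these genes. Chac1, a glutathione-degrading enzyme, had a non-additivity of 0.31 ± 0.21, and Phgdh, the first enzyme of serine synthesis, 0.18 ± 0.21. Trib3, a pseudokinase that restrains ATF4 signalling, had 0.08 ± 0.26, and Slc3a2, the heavy chain that pairs with both Slc7a5 and Slc7a11, 0.06 ± 0.25. Atf4 itself had 0.04 ± 0.24, and Ddit3, the stress transcription factor CHOP, 0.02 ± 0.25. The group as a whole had 9 positive values and 1 negative, with a median of 0.14, against a median of 0.03 and 53.1% positive over the 16524 genes tested. These values took part in choosing the members, so nothing is read from the counts. Leaving out an array of A moved the Asns value between 1.98 and 2.61 and the Slc7a5 value between 1.73 and 2.89. Without A_doubleKO replicate 2 these values were 2.16 for Asns and 2.15 for Slc7a5. The median over the members moved to 0.32 without A_WT replicate 2.

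**Figure D2:**
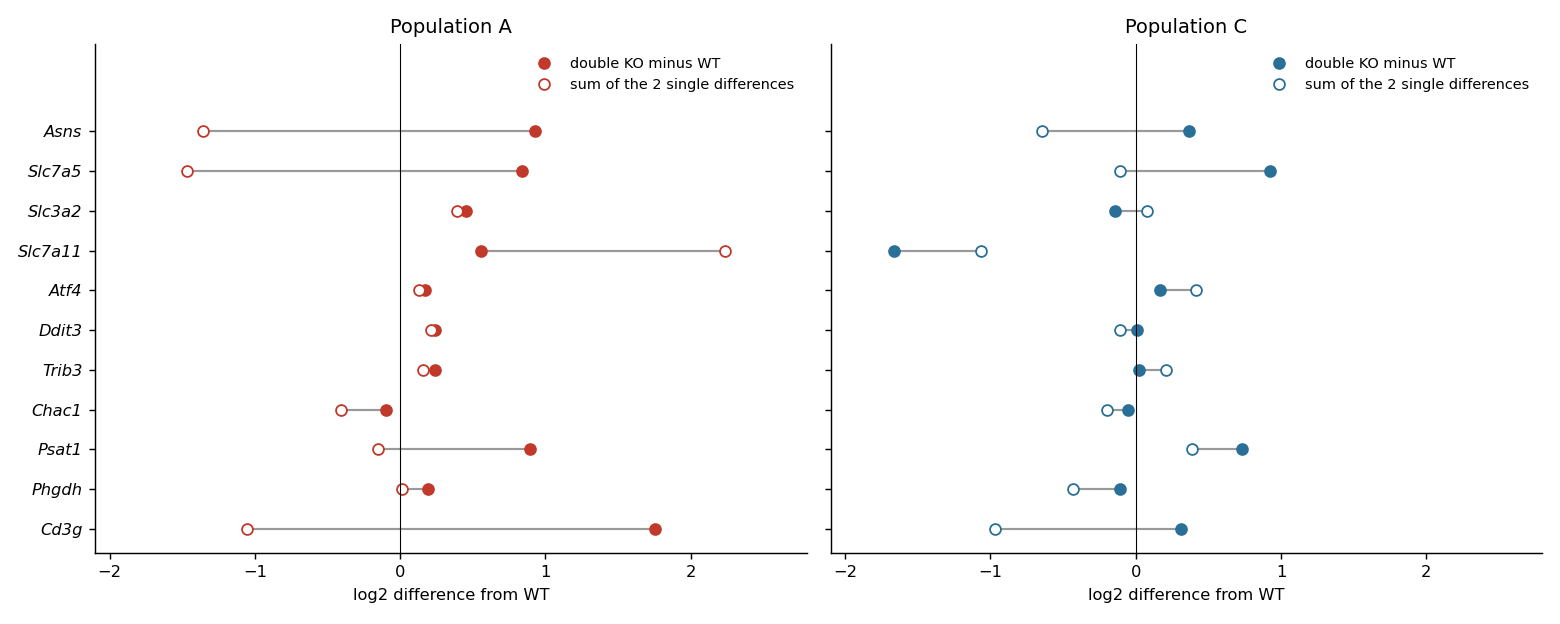
Double KO minus WT (filled circles) and the sum of the 2 single-deletion differences from WT (open circles), as log2 differences on the horizontal axis, for each member and Cd3g, in population A (left) and population C (right). The distance between the circles of a row is the size of the non-additivity, which is 2.29 for Asns and 2.81 for Cd3g in A. For Slc7a11 the filled circle lies to the left of the open one in both populations, a negative value.

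Tumour or T lineage RNA moved with the same arrays. Cd3g read 8.39 and 8.49 in double KO cells of A, 6.46 and 7.02 in Myd88 cKO cells, 5.54 and 5.61 in TNFR1-/- cells, and 6.44 and 6.93 in WT cells, the same order of extremes as Asns and Slc7a5. Its non-additivity in A was 2.81 ± 0.33. All 11 tested genes of a T lymphocyte and EG7 line list were positive (median 0.75), as were all 13 of a cell cycle list (median 0.72) and all 6 fibroblast markers (median 1.09), while 6 of 9 macrophage markers were negative (median -0.90). The mean signal of 13 T lymphocyte and EG7 genes was 6.57 and 6.59 on the double KO arrays of A, against 5.54 and 5.56 in TNFR1-/- cells. With Cd3g as a covariate in the fit, the non-additivity was 1.08 ± 1.01 for Asns, 2.33 ± 1.31 for Slc7a5, 0.58 ± 0.77 for Psat1 and -0.74 ± 1.44 for Slc7a11. Each of these errors is close to 3 times the error without the covariate. Whether the members' signals came from macrophages or from EG7 cells in the sort was not tested, and more cells of a type and more RNA per cell cannot be told apart in such bulk samples.

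Other genes of the same pathways are described on the same measure, beside 53.1% positive and a median of 0.03 over all genes. These lists were chosen with earlier results of these data known, so nothing is read from the counts below. Of 24 other ATF4 and amino acid response targets, 16 had a positive non-additivity in A, with a median of 0.23. Of 16 cytosolic aminoacyl-tRNA synthetases, which load amino acids on tRNA, 14 were positive (median 0.46), and of 12 other amino acid transporters 8 were (median 0.39). The eIF2alpha kinases and stress response core had 4 of 8 positive (median 0.02), and the endoplasmic reticulum chaperones 5 of 13 (median -0.04). Over the 16 sorted arrays, the genes whose signals were most like the mean of the members, each scaled to its own spread, were Mindy3 (Pearson r = 0.90), Thy1 (0.87), Myb (0.86), Zfp706 (0.86) and Ppif (0.85). Thy1 is a T lymphocyte surface protein. Cd3g ranked 36 of 16514 genes by this measure, with r = 0.78. These values describe arrays that differ in population and genotype together.

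**Figure D3:**
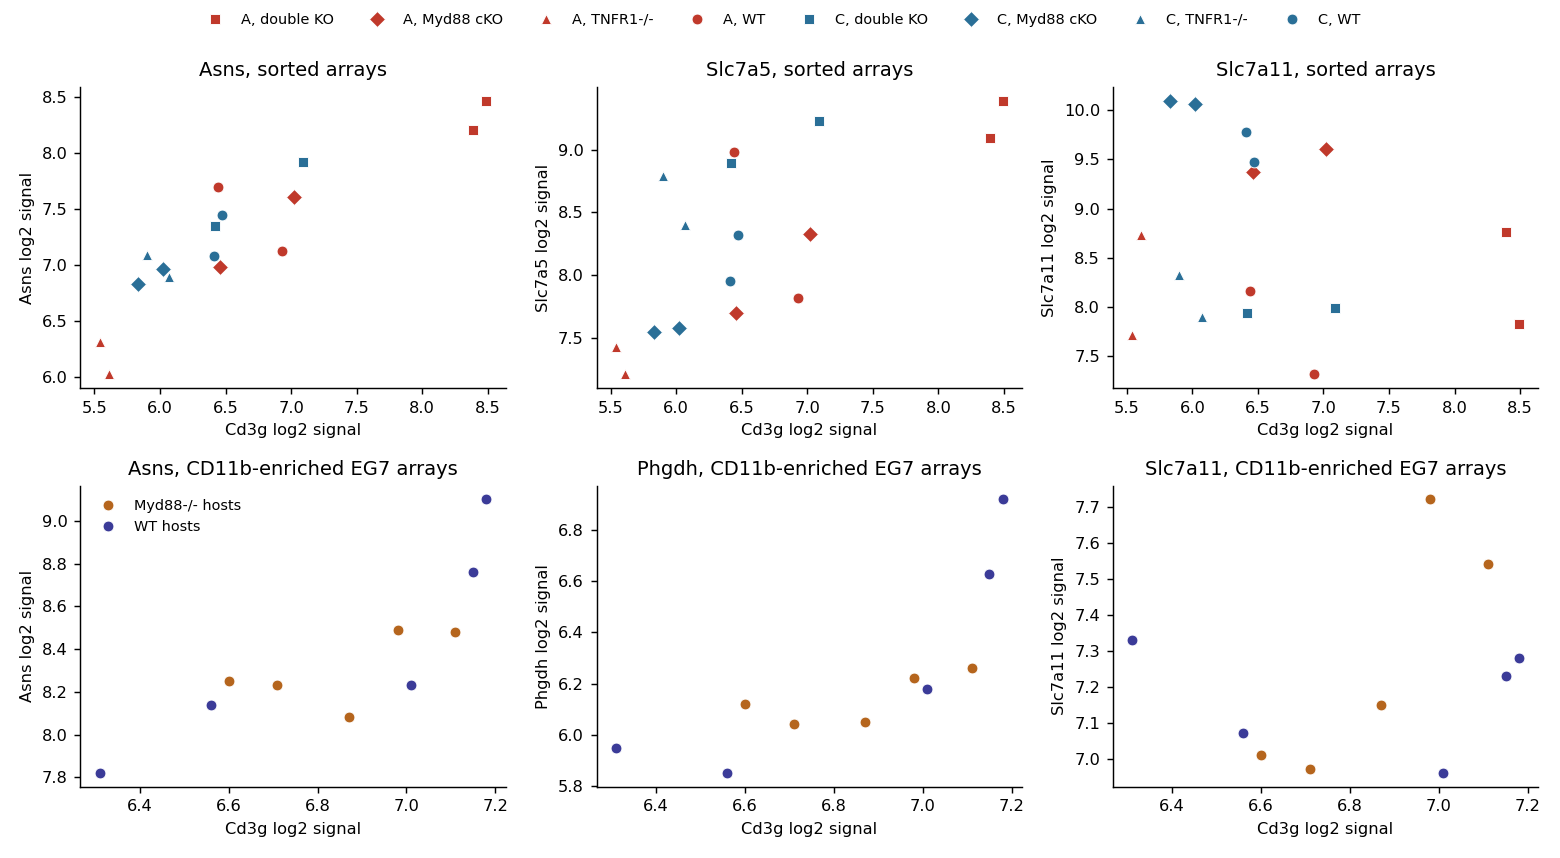
Log2 signal of single members (vertical axes) against log2 signal of Cd3g (horizontal axes), a point per array. The upper row shows Asns, Slc7a5 and Slc7a11 on the 16 sorted arrays (red for A, blue for C, with shapes for genotypes), and the lower row Asns, Phgdh and Slc7a11 on the 10 CD11b-enriched arrays of Myd88-/- and WT hosts. The A double KO arrays, with Cd3g at 8.39 and 8.49, are the 2 highest for Asns and include the highest for Slc7a5, but lie in the middle and low range for Slc7a11.

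The mean effect of the Myd88 deletion in A, taken over hosts with and without TNFR1, rests on the arrays whose values chose the members, so for the members it is a description and no p is given. It was 1.03 ± 0.18 for Asns, 0.91 ± 0.25 for Slc7a11, 0.77 ± 0.22 for Slc7a5, 0.59 ± 0.13 for Psat1 and 0.45 ± 0.13 for Slc3a2. In the limma fit Asns and Psat1, 2 of 10, were past the threshold, where 4.67% of all genes were called, 4.19% higher and 0.478% lower, and nothing is read from that count. The other 5 members lay between -0.02 and 0.12. The Asns mean rests on the TNFR1-deficient hosts, where both double KO arrays were above both TNFR1-/- arrays, while Myd88 cKO minus WT was -0.12.

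Slc7a11 and Slc3a2 in A were ordered differently from Asns. Slc7a11 read 8.76 and 7.82 in double KO cells, 9.37 and 9.61 in Myd88 cKO cells, 7.71 and 8.73 in TNFR1-/- cells, and 8.16 and 7.31 in WT cells. Its Myd88 cKO pair lay above all the other arrays of A, and the double KO pair overlapped TNFR1-/- and WT. Slc3a2 read 10.85 and 10.76 in double KO cells, 10.66 and 10.88 in Myd88 cKO cells, 10.18 and 10.47 in TNFR1-/- cells, and 10.61 and 10.09 in WT cells, so all 4 arrays with the deletion were above all 4 without it. Atf4, at 7.12 to 7.67 over the 8 arrays of A, and Ddit3, at 6.42 to 6.90, showed no such separation.

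A few genes of the related lists were called with the Myd88 deletion in A, to be read against the 4.67% called among all genes. Shmt2, the mitochondrial serine hydroxymethyltransferase, rose by 1.01 ± 0.12 (adjusted p = 0.000808) and Aldh18a1, the first enzyme of proline synthesis, by 0.54 ± 0.11 (adjusted p = 0.0132), and these were the 2 of 24 other ATF4 targets called. The arginine transporters Slc7a2 (1.71 ± 0.31, adjusted p = 0.00891) and Slc7a1 (0.60 ± 0.13, adjusted p = 0.0197) rose, 2 of 12 transporters. Of 16 synthetases 1 was called, Lars, which rose by 0.52 ± 0.10 (adjusted p = 0.00991). The endoplasmic reticulum chaperones had 3 of 13 called higher, Hsp90b1 (0.91 ± 0.17, adjusted p = 0.00926), Dnajb9 (0.72 ± 0.14, adjusted p = 0.0143) and Edem1 (0.50 ± 0.13, adjusted p = 0.0398). None of 8 genes of the eIF2alpha kinase list was called by limma, with 2 at an unadjusted p under 0.05, and Impact, which inhibits GCN2, had the smallest p (0.38 ± 0.13, adjusted p = 0.103).

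Markers of other cells moved with this comparison too. Cd3g rose by 1.46 ± 0.16 (adjusted p = 0.000651), 4 of 11 T lymphocyte and EG7 genes were called higher, and so were 9 of 13 cell cycle genes, among them Ccnb2 (0.88 ± 0.13, adjusted p = 0.00238). Of 9 macrophage markers 5 were higher, including C1qc (1.91 ± 0.23, adjusted p = 0.00103). Fibroblast markers had 2 of 6 higher, with Dcn at 1.36 ± 0.22 (adjusted p = 0.00476). Mean macrophage marker signal was 8.82 and 8.96 in double KO cells and 9.53 to 10.06 in Myd88 cKO cells, against 7.92 to 8.69 in TNFR1-/- cells and 8.26 to 8.75 in WT cells. With Cd3g as a covariate, Asns differed by 0.40 ± 0.52 and Psat1 by 0.34 ± 0.40. Over all genes the fit with that covariate called 0, and that with only the 8 arrays of A called 37. The main fit called 772. No member was past the threshold in either alternative, a loss of calls that was thus not particular to the members. Without A_WT replicate 1 the count was 5 of 10, and leaving out any of 4 other arrays of A (A_WT replicate 2, A_TNFR1KO replicate 1, A_Myd88cKO replicate 2 or A_doubleKO replicate 1) left 1, Asns. The part of tumour RNA or cell mix in these differences was not tested.

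The mean effect of the TNFR1 deletion in A rests on the same arrays, so for the members it is a description too and no p is given. In the limma fit none of the 10 members was past the threshold, where 0.182% of all genes were called, 0.0424% higher and 0.139% lower. Nothing is read from that count. Psat1 differed by 0.31 ± 0.13. Asns differed by -0.10 ± 0.18, Slc7a5 by 0.07 ± 0.22 and Slc7a11 by -0.36 ± 0.25, since opposite differences with and without Myd88 cancel in this mean for Asns and Slc7a5. Genes called with this deletion included 2 endothelial markers, Cdh5 (-1.55 ± 0.13, adjusted p = 0.00019) and Emcn (-0.87 ± 0.15, adjusted p = 0.039), and Cd3g differed by 0.30 ± 0.16 (adjusted p = 0.454).

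In population C the cystine importer Slc7a11 was lower in both genotypes that lack TNFR1. It read 7.93 and 7.99 in double KO cells, 10.06 and 10.10 in Myd88 cKO cells, 8.32 and 7.89 in TNFR1-/- cells, and 9.78 and 9.47 in WT cells. All 4 arrays with the TNFR1 deletion were below all 4 without it. The mean effect of the deletion was -1.82 ± 0.25 (limma adjusted p = 0.00163), with a 95% interval of -2.35 to -1.29, about a 3.53-fold lower signal. Slc7a11 was the 1 member of 10 called, and 1.09% of all genes were called, 0.617% lower and 0.472% higher. A second Slc7a11 probe set, below the median of every array, gave means of 3.95 in double KO cells, 4.83 in Myd88 cKO cells, 4.01 in TNFR1-/- cells and 4.64 in WT cells, with the same separation.

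**Figure D4:**
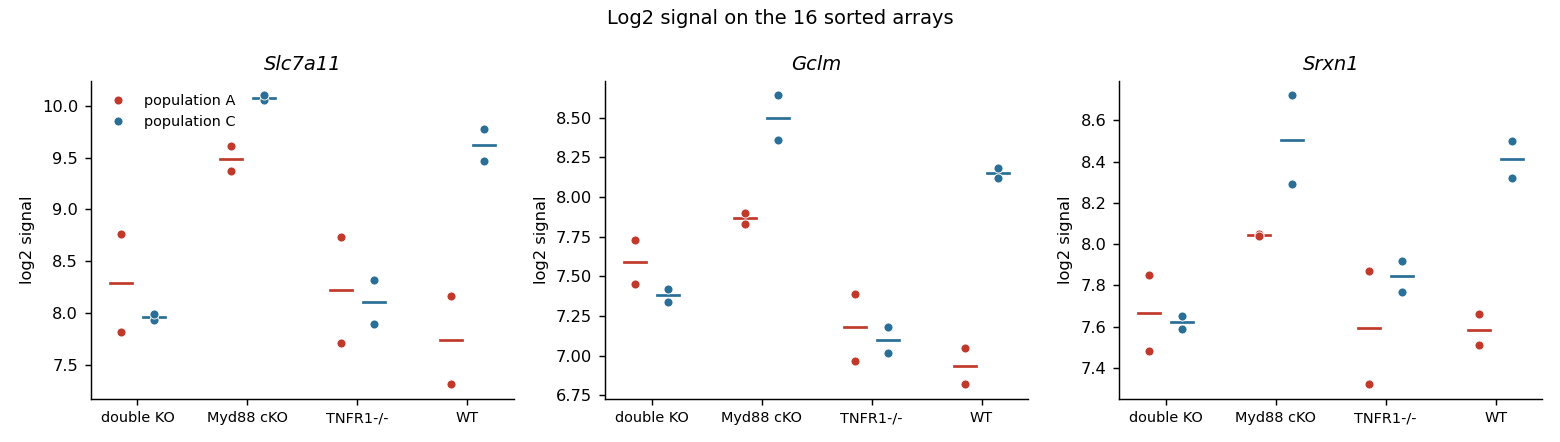
Log2 signal of Slc7a11, Gclm and Srxn1 (vertical axes) by host genotype (horizontal axes) on the 16 sorted arrays, with points for arrays, short lines for the means of 2 arrays, red for population A and blue for C. In C all 3 genes are lower in double KO and TNFR1-/- cells than in Myd88 cKO and WT cells, and in A they are not separated in this way.

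Slc7a11 is also a target of NRF2, the transcription factor of the response to oxidants. Among 9 other NRF2 targets 2 were called lower with the TNFR1 deletion in C, where 0.617% of all genes were called lower. The list median was -0.65 against -0.004 for all genes. Gclm, a subunit of the enzyme that starts glutathione synthesis, read 7.42 and 7.34 in double KO cells, 8.64 and 8.36 in Myd88 cKO cells, 7.18 and 7.02 in TNFR1-/- cells, and 8.12 and 8.18 in WT cells. It fell by 1.08 ± 0.12 on the log2 scale (adjusted p = 0.000403). Srxn1, sulfiredoxin, fell by 0.73 ± 0.14 (adjusted p = 0.0219). Both genes had all 4 TNFR1-deficient arrays below the other 4, as Slc7a11 did.

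Slc7a5 and Psat1 had positive TNFR1 differences in C that were not called. Slc7a5 read 8.89 and 9.23 in double KO cells, 7.58 and 7.55 in Myd88 cKO cells, 8.79 and 8.40 in TNFR1-/- cells, and 7.95 and 8.32 in WT cells, a TNFR1 difference of 0.98 ± 0.22 (adjusted p = 0.0503). Psat1 read 7.10 and 7.14 in double KO cells, 6.58 and 6.23 in Myd88 cKO cells, 6.80 and 6.70 in TNFR1-/- cells, and 6.33 and 6.44 in WT cells, a difference of 0.54 ± 0.13 (adjusted p = 0.0794). For both, all arrays with the TNFR1 deletion lay above all without it, opposite to Slc7a11. Fitted on the 8 arrays of C alone, both were called, Slc7a5 with an adjusted p of 0.00112 and Psat1 with 0.0158. Calls over all genes rose in that fit too, to 457 from 180 in the main fit. Aldh18a1 was the 1 of 24 other ATF4 targets called, at 0.56 ± 0.11 (adjusted p = 0.0203). No transporter, synthetase, eIF2alpha kinase or chaperone was called by limma, with 3, 2, 0 and 1 of them at an unadjusted p under 0.05.

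Cd3g differed by 0.19 ± 0.16 with the TNFR1 deletion in C (adjusted p = 0.984), and with Cd3g as a covariate Slc7a11 differed by -1.76 ± 0.27 (adjusted p = 0.00649). No macrophage marker of 9 was called, with 2 at an unadjusted p under 0.05. The dendritic cell marker Dpp4 (0.65 ± 0.14, adjusted p = 0.0333) and the B lymphocyte gene Cd79b (0.81 ± 0.16, adjusted p = 0.0219) were higher, and all 5 dendritic cell markers were positive. Their part in the Slc7a11 difference was not tested. With the double KO arrays left out, TNFR1-/- against WT gave -1.52 ± 0.36 for Slc7a11 and no call (adjusted p = 0.325), an alternative added after the data were seen. Over all alternatives the adjusted p of Slc7a11 ran between 4.82e-06 and 0.325.

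The remaining contrasts in C called no member. The mean effect of the Myd88 deletion in C called 0 of 10 by limma, with 0 at an unadjusted p under 0.05, and 0.0182% of all genes, 0.00605% higher and 0.0121% lower. Psat1 was the most positive (0.20 ± 0.13) and Trib3 the most negative (-0.18 ± 0.13). Double KO against WT in C called 0 of 10, with 3 at an unadjusted p under 0.05, and 0.309% of all genes, 0.176% higher and 0.133% lower. These 3 were Slc7a11 (-1.67 ± 0.35, adjusted p = 0.0762), Psat1 (0.73 ± 0.18, adjusted p = 0.172) and Slc7a5 (0.93 ± 0.31, adjusted p = 0.48). Fitted on population C alone, all 3 were called, and calls over all genes rose too, to 204 from 51 in the main fit.

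Non-additivity in C was not used in choosing the members. No member was called by limma, with 2 at an unadjusted p under 0.05, and 0% of all genes were called. Asns read 7.35 and 7.92 in double KO cells, 6.96 and 6.83 in Myd88 cKO cells, 7.09 and 6.89 in TNFR1-/- cells, and 7.08 and 7.45 in WT cells, a non-additivity of 1.01 ± 0.36 (unadjusted p = 0.0136, adjusted p = 1). Slc7a5 had 1.03 ± 0.44 (unadjusted p = 0.0335, adjusted p = 1). Both have the sign they had in A. Cd3g, at 6.42 and 7.09 in double KO cells, 6.02 and 5.83 in Myd88 cKO cells, 5.90 and 6.07 in TNFR1-/- cells, and 6.41 and 6.47 in WT cells, had 1.29 ± 0.33 (unadjusted p = 0.0015, adjusted p = 1).

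The comparison of the populations, averaged over the 4 genotypes, rests in part on the arrays of A that chose the members. For the members it is therefore a description, and no p is given. Slc3a2 was lower in A than in C by -0.38 ± 0.09 and Slc7a11 by -0.51 ± 0.17, while Phgdh was higher by 0.24 ± 0.07 and Chac1 by 0.22 ± 0.07. In the limma fit these 4 of 10 were past the threshold, where 32.3% of all genes were called, 11.1% higher and 21.3% lower. That share is near the background, and nothing is read from the count. The third transporter chain, Slc7a5, differed by -0.10 ± 0.16 and was not past the threshold. Slc3a2 spanned 10.09 to 10.88 on the 8 arrays of A and 10.79 to 11.08 on those of C. Phgdh spanned 5.65 to 6.11 in A and 5.47 to 5.84 in C, and Chac1 5.60 to 6.04 in A and 5.43 to 5.70 in C. All of these ranges overlap. Phgdh and Chac1 read near the middle of the arrays, at percentiles 53.1 to 66.6 and 52.2 to 65.3, so their small differences lie at low signals. Of 22 alternatives, the Chac1 call was lost in 15, the Slc7a11 call in 13, the Phgdh call in 5 and the Slc3a2 call in 2. With Cd3g as a covariate, or with the replicate number as a block, none of the 4 was called, and without C_WT replicate 1 or A_doubleKO replicate 2 only 1 was. The count was 2 without C_TNFR1KO replicate 1, C_doubleKO replicate 1, A_Myd88cKO replicate 1 or either array of C_Myd88cKO.

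The Slc7a11 value of A minus C was negative in cells with TNFR1 and positive in cells without it. It was 0.33 ± 0.35 in double KO cells, -0.59 ± 0.35 in Myd88 cKO cells, 0.11 ± 0.35 in TNFR1-/- cells and -1.89 ± 0.35 in WT cells. The TNFR1 effect in A minus that in C was 1.46 ± 0.35 for Slc7a11, and 1.70 without A_doubleKO replicate 2. For Gclm, which is not a member, limma gave 1.07 ± 0.17 (adjusted p = 0.0251). These contrasts include the arrays of A that chose the members, so for the members they are a description and no p is given. In the limma fit no member was past the threshold for either deletion. Over all genes 0.103% were called for TNFR1, 0.00605% higher and 0.0968% lower, and 0% for Myd88. Nothing is read from the count of members. For Myd88 the effect in A minus that in C was 0.89 ± 0.25 for Asns, 0.82 ± 0.31 for Slc7a5, 0.46 ± 0.18 for Slc3a2 and 0.76 ± 0.35 for Slc7a11. In the mean of A against C, 10 of 13 chaperones were lower in A, led by Calr (-1.13 ± 0.11, adjusted p = 6.59e-06), and 9 of 16 synthetases were, led by Sars (-0.46 ± 0.08, adjusted p = 0.000479). Of 9 macrophage markers 8 were lower in A, and Cd3g was higher by 0.58 ± 0.12 (adjusted p = 0.00146).

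In CD11b-enriched cells, 6 of the 10 members were lower in neuroblastoma than in EG7, against 14.7% of all genes called, 5.22% lower and 9.49% higher. Phgdh read 5.01, 5.80 and 5.62 in neuroblastoma, against 9.34, 8.96 and 8.72 in EG7, a difference of -3.53 ± 0.26 (limma adjusted p = 0.000724). Asns read 8.53, 8.78 and 9.26 in neuroblastoma, against 11.49, 10.92 and 11.0 in EG7, a difference of -2.28 ± 0.25 (adjusted p = 0.0027). The groups did not overlap for either gene. Slc7a11 read 5.59, 6.73 and 5.46 in neuroblastoma, against 8.38, 8.05 and 8.16 in EG7, a difference of -2.27 ± 0.35 (adjusted p = 0.00817).

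**Figure D5:**
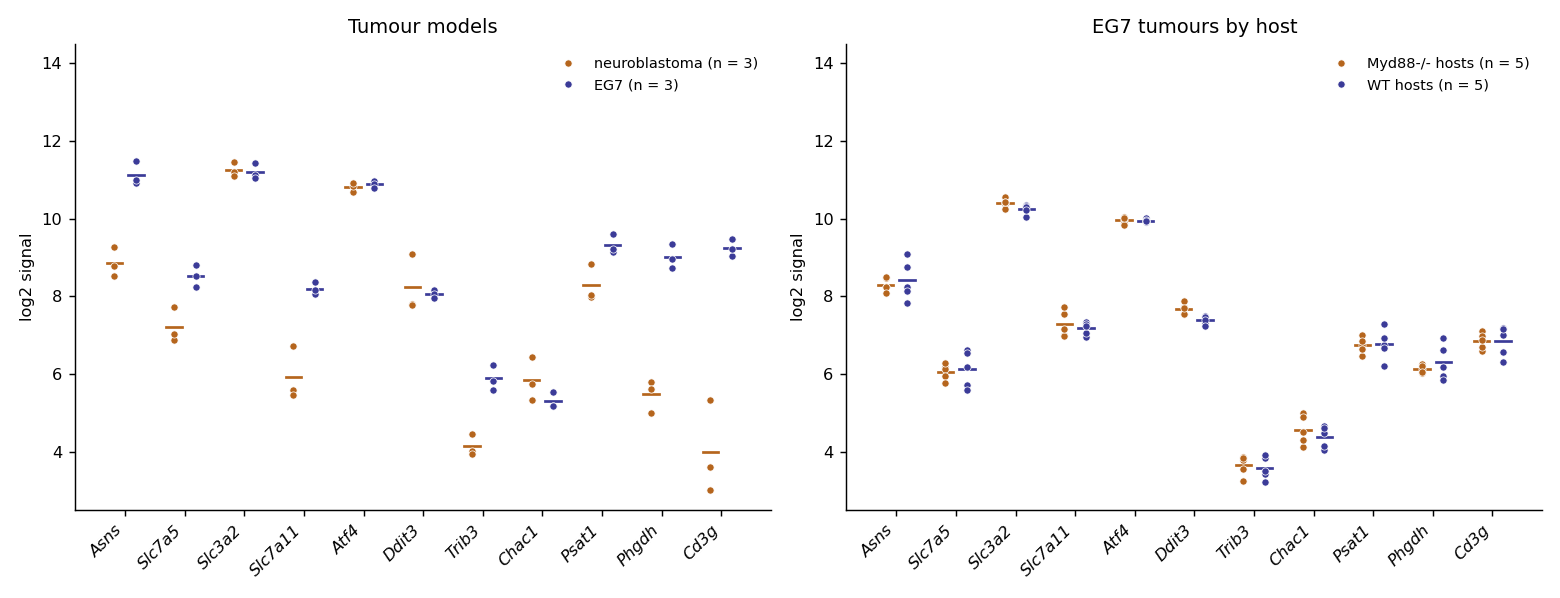
Log2 signal (vertical axes) of the 10 members and Cd3g (horizontal axes) on CD11b-enriched arrays, with points for arrays and short lines for group means. Neuroblastoma is beside EG7 on the left (3 arrays each), and Myd88-/- hosts are beside WT hosts on the right (5 each). Phgdh, Asns, Slc7a11 and Cd3g are separated between the tumour models, and all 11 genes overlap between the hosts except Ddit3.

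The rest of the group divided in this comparison. Trib3 was lower in neuroblastoma by -1.75 ± 0.23 (adjusted p = 0.00509), Slc7a5 by -1.31 ± 0.27 (adjusted p = 0.0228) and Psat1 by -1.04 ± 0.27 (adjusted p = 0.0486). Of 12 alternatives, the Psat1 call was lost in 9 (adjusted p of 0.0155 to 0.909) and the Slc7a5 call in 5 (0.0125 to 0.896), and the Slc7a5 call was lost without neuroblastoma array 1 or EG7 array 1 or 2. Atf4 read 10.70, 10.84 and 10.93 in neuroblastoma, against 10.97, 10.90 and 10.78 in EG7, a difference of -0.06 ± 0.14 (adjusted p = 0.822). Its 95% interval ran between -0.41 and 0.29. Slc3a2 (0.06 ± 0.18, adjusted p = 0.855), Ddit3 (0.17 ± 0.36, adjusted p = 0.796) and Chac1 (0.54 ± 0.29, adjusted p = 0.27) were not called either. The enzymes Asns, Psat1 and Phgdh and both light chains were lower in neuroblastoma, and no difference was called in the transcription factors Atf4 and Ddit3 or in the shared heavy chain Slc3a2.

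Neuroblastoma array 2 stood apart. Its Ddit3 signal was 9.10, against 7.81 and 7.78 on the other 2 arrays, its Slc7a11 signal was the highest of the 3, and so was its Cd3g signal. Its mean over 5 natural killer cell markers was 6.06, against 3.10 and 3.80 on the other 2 arrays, and over 4 B lymphocyte markers 6.47, against 3.55 and 5.33. The part of these cells in its member values was not tested. Without it Ddit3 differed by -0.27 ± 0.16, Slc7a11 by -2.67 ± 0.18 (adjusted p = 0.00059), and Psat1 by -0.91 ± 0.30, no longer called (adjusted p = 0.0874). Second probe sets ran the same way for Phgdh, with means of 4.09 in neuroblastoma and 8.45 in EG7, and for Slc7a11, with means of 4.03 and a range of 3.61 to 4.29 in neuroblastoma and a mean of 5.39 and a range of 4.55 to 6.65 in EG7.

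Markers of the tumour cells separated the same 6 arrays. Cd3g read 3.01, 5.33 and 3.62 in neuroblastoma, against 9.47, 9.04 and 9.22 in EG7, a difference of -5.26 ± 0.56 (adjusted p = 0.00241). Of 13 T lymphocyte and EG7 genes 11 were called lower in neuroblastoma, led by Trap1a (-6.50 ± 0.13, adjusted p = 9.22e-06), and the mean signal of the 15 listed genes on this array type was 3.77 to 4.73 in neuroblastoma and 7.21 to 7.43 in EG7. The mean of 7 sympathetic neuron and neuroblastoma genes was 7.99 to 8.82 in neuroblastoma and 3.52 to 3.61 in EG7, and 6 of 7 were called higher. Since Cd3g nearly equals the group label here, no member was called with it as a covariate, and the Slc7a11 difference had the opposite sign (0.64 ± 0.69). Endothelial markers separated the arrays too, with a lowest array mean of 8.18 in neuroblastoma, against a highest of 7.01 in EG7, and 4 of 5 called higher, led by Kdr (2.51 ± 0.22, adjusted p = 0.00119). Of 5 fibroblast markers 1 was called, Pdgfrb (1.85 ± 0.31, adjusted p = 0.011). Macrophages, tumour cells and other cells carried along in the enrichment cannot be told apart as the source of these differences.

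Other pathway genes differed in both directions between the models. The serine synthesis enzyme Psph (-1.33 ± 0.27, adjusted p = 0.0213) was lower in neuroblastoma, and the stress phosphatase subunit Ppp1r15a (0.97 ± 0.16, adjusted p = 0.0106) was higher. In all, 4 of 21 other ATF4 targets were lower and 2 higher. The glutamine transporter Slc1a5 read 5.10, 4.78 and 6.23 in neuroblastoma, against 7.58, 7.70 and 7.31 in EG7 (-2.16 ± 0.37, adjusted p = 0.0127). The basic amino acid transporter subunit Slc7a7 was higher in neuroblastoma (1.17 ± 0.19, adjusted p = 0.0103). Transporters as a list had 3 of 14 higher and 2 lower. Of 15 tRNA synthetases 2 were lower, Aars (-1.12 ± 0.18, adjusted p = 0.00988) and Nars (-0.87 ± 0.17, adjusted p = 0.0192), and 13 were negative. Of 10 NRF2 targets 1 was lower, Gsr (-1.32 ± 0.16, adjusted p = 0.00352). No chaperone of 14, eIF2alpha kinase gene of 6 or cell cycle gene of 14 was called by limma, with 1, 2 and 1 at an unadjusted p under 0.05.

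Between Myd88-/- and WT hosts the members hardly differed in CD11b-enriched cells of EG7 tumours. None of 10 was called by limma, with 1 at an unadjusted p under 0.05, and 1.48% of all genes were called, 1.22% lower and 0.26% higher. That member was Ddit3, which read 7.56, 7.72, 7.54, 7.88 and 7.70 in Myd88-/- hosts, against 7.31, 7.50, 7.47, 7.39 and 7.25 in WT hosts. Every Myd88-/- array was above every WT array, by 0.30 ± 0.09 in the mean (adjusted p = 0.144). Asns read 8.25, 8.48, 8.49, 8.23 and 8.08 in Myd88-/- hosts, against 7.82, 8.23, 8.14, 9.10 and 8.76 in WT hosts, a difference of -0.10 ± 0.20 with a 95% interval of -0.54 to 0.33. The Slc7a11 interval was -0.21 to 0.42 and that of Slc7a5 -0.49 to 0.34. Ppp1r15a, which restores translation after stress, was the 1 of 20 other ATF4 targets called (-0.46 ± 0.09, adjusted p = 0.0252). No transporter, synthetase, eIF2alpha kinase list gene, chaperone, NRF2 target or T lymphocyte and EG7 gene was called by limma, with 1, 0, 3, 3, 3 and 1 at an unadjusted p under 0.05. The smallest p among these was that of Eif2ak3, which encodes PERK (0.32 ± 0.07, adjusted p = 0.0623). Of 4 monocyte markers 3 were lower in Myd88-/- hosts, led by Ly6c1 (-0.82 ± 0.10, adjusted p = 0.00147).

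Within these 10 arrays several members followed Cd3g from array to array. The correlation was computed for the members only, so the share of all genes that follow Cd3g is not known here. Whether following Cd3g is particular to the members was not tested. Cd3g differed by 0.01 ± 0.17 between Myd88-/- and WT hosts, and its arrays spanned 6.6 to 7.11 in Myd88-/- hosts and 6.31 to 7.18 in WT hosts. Asns had Pearson r = 0.82 (permutation p = 0.00088, adjusted over 10 relations 0.0044) and Spearman rho = 0.81 (permutation p = 0.00568, adjusted 0.0202) with Cd3g. Without the 2 arrays farthest from the median of Cd3g, r was 0.72. For Phgdh r was 0.77 (permutation p = 0.00044, adjusted 0.0044) and rho 0.94 (permutation p = 0.00028, adjusted 0.0028), and r without those 2 arrays was 0.74. Psat1 had r = 0.81 (permutation p = 0.00352, adjusted 0.0117) and rho = 0.78 (permutation p = 0.0106, adjusted 0.0265), and 0.67 without them. Slc7a5 had r = 0.76 (permutation p = 0.0106, adjusted 0.0265) and rho = 0.81 (permutation p = 0.00606, adjusted 0.0202), and 0.60 without them.

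The other members did not follow Cd3g in both measures. Trib3 had r = 0.64 (permutation p = 0.0546, adjusted 0.109) and rho = 0.72 (permutation p = 0.0239, adjusted 0.0478), and r = 0.39 without the 2 farthest arrays. Slc7a11 had r = 0.30 (permutation p = 0.399, adjusted 0.514) and rho = 0.22 (permutation p = 0.535, adjusted 0.621), and r = 0.51 without those arrays. Slc3a2 had a negative r of -0.54 (permutation p = 0.102, adjusted 0.17) and rho of -0.55 (permutation p = 0.107, adjusted 0.178), and without the 2 farthest arrays its r was -0.84. For Atf4, Ddit3 and Chac1 r lay between -0.29 and 0.18, with adjusted permutation p of 0.514 or more, and without those arrays r was -0.52 for Atf4, -0.57 for Ddit3 and -0.27 for Chac1. Each host group has 5 arrays, too few for a correlation of its own, and with each array taken as its deviation from its group mean r was 0.83 for Asns, 0.81 for Phgdh, 0.81 for Psat1 and 0.77 for Slc7a5. On the sorted arrays genotypes and populations form separate clusters, so no correlation is tested there.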

How the data were processed

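The authors deposited a log2 signal for each probe set, and the submitters' processing notes name RMA and Affymetrix Expression Console 1.1. RMA puts arrays on one distribution, so a global shift in RNA content would be removed. From 100 ng of RNA per array, 16 arrays were read on each chip type (HT_MG-430_PM and Mouse Gene 2.0 ST). No source used here says which arrays shared a normalization run, so the 3 experiments were analysed apart. Arrays have no depth, and their number limits the precision.

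Probe sets with 1 symbol in the platform annotation (28898 of 45141 and 23521 of 41345) were used, the one of highest mean per gene. Genes were kept if they exceeded the array's 40th percentile on a number of arrays equal to the smallest group or more, and were tested with limma 3.58.1 in R 4.3.3, the sorted arrays in 1 fit of 8 groups (8 residual degrees of freedom). The fits were tested on simulated data. Correlations used scipy 1.17.1 with 100000 resamples. Alternatives were no filter, joint quantile normalization, a trended robust variance, the mean of all probe sets, a replicate block, Cd3g as a covariate, leaving out arrays and fits of 1 population.

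The members, gene lists and tests were chosen with earlier results of these data known. By rule, all members and Cd3g are named, with up to 3 called genes of smallest adjusted p from each list (1 of smallest p where none was called) and the 5 genes most like the members. The second probe sets were added after their values were seen. No 2 arrays held identical values.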

Additional observations from a re-analysis of the deposited data

How the results depend on the processing

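Counts of members called stayed within 1.5 times of the main count under no filter, a trended robust variance and the mean of all probe sets, in every comparison tested. With joint quantile normalization, A against C called 1 and double KO against WT in C called 1, and the share of higher calls among all genes in that last comparison was 43.4% instead of 56.9%. With Cd3g as a covariate, neuroblastoma against EG7, A against C and the Myd88 deletion in A each called 0 members. Over all genes they called 86, 1562 and 0, against 1850, 5344 and 772 in the main fits. The Slc7a11 difference between neuroblastoma and EG7 was then 0.64 instead of -2.27, and the median non-additivity in A 0.44 instead of 0.14. In that fit Cd3g and the groups overlap in what they explain. Fits of 1 population alone called 0 members for the Myd88 deletion in A, and 3 each for the TNFR1 deletion and for double KO against WT in C. Over all genes these 3 comparisons called 37, 457 and 204, against 772, 180 and 51 in the main fit. Fits of 1 population hold fewer arrays and their own estimate of the spread. Without the double KO arrays, the TNFR1 deletion in C called 0, with fewer samples. The cause of the other shifts was not tested.

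With each array left out in turn, the counts ran between 4 and 6 for neuroblastoma against EG7, between 1 and 4 for A against C, between 1 and 5 for the Myd88 deletion in A, between 1 and 3 for the TNFR1 deletion in C, between 0 and 1 for double KO against WT in C and for the TNFR1 deletion in A minus C, and the median non-additivity in A ran between 0.12 and 0.32. The counts of the other comparisons stayed at 0. Replicate numbers showed no steady pairing of groups within an experiment or population, and so few arrays cannot exclude it. Correlations of same-numbered deviations were between -0.05 and 0.22 over 3 pairs in the tumour models and between -0.25 and 0.23 over 5 pairs in the Myd88 experiment. They were between -0.50 and 0.38 in A and between -0.10 and 0.26 in C (6 distinct values each, since the 2 arrays of a group mirror each other). Same-numbered arrays of A and C were not compared, so whether they share a tumour was not tested. With the replicate block, A against C called 0 and neuroblastoma against EG7 called 4 (Slc7a5 and Psat1 lost), and the count of no other comparison changed.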
